A study of Gallus gallus with 2 samples.

Results

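The genes described here encode general splicing factors and tissue regulators of splicing in the chicken. They were taken by symbol: every chicken probe set whose single gene symbol begins with SRSF, HNRNP, SF3A, SF3B, SNRP or PRPF (general factors) or with PTBP, RBFOX, NOVA, CELF, MBNL or KHDRBS (tissue regulators). This gave 191 probe sets for 68 genes, of 27166 probe sets and 13008 genes with 1 symbol on the array. Of the 68 genes, 50 are general factors with 133 probe sets and 18 are tissue regulators with 58.

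Pre-mRNA splicing is carried out by the spliceosome, built from small nuclear ribonucleoproteins (snRNPs) whose protein parts include the Sm ring, the SF3A and SF3B complexes and the PRPF proteins. SR proteins bind exons and mostly favour their inclusion, while heterogeneous nuclear ribonucleoproteins (hnRNPs) often counter them. Tissue regulators bind near chosen exons. In the developing nervous system PTBP1 holds neuronal exons back in progenitors, PTBP2 takes over in young neurons, and RBFOX, NOVA, CELF and KHDRBS proteins shape neuronal splicing programmes.

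Gene expression was measured on an Affymetrix chicken array in GFP-positive cells sorted from the neural tube of chicken embryos. The control group is 1 sample electroporated with the plasmid pSuper-neo-GFP alone, and the knockdown group is 1 sample electroporated with pSuper-neo-GFP-Sox4-shRNA and pSuper-neo-GFP-Sox11-shRNA together, so that both groups carry the GFP vector. Both were electroporated at Hamburger-Hamilton stage 9 and harvested at stage 11, while the same labels state 2 days of incubation, which does not obviously go with stage 11. The number of embryos behind a sample is not given in these labels.

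With 1 array per group there was no replicate spread and no test was made, so "higher" and "lower" describe these 2 arrays only. Values are linear signal intensities, and a log2 ratio is the knockdown signal over the control signal on the log2 scale. Where a pair of signals is given for a gene, the control comes first and the knockdown second. Each gene was represented by its brightest probe set by mean log2 signal, and was called measured when that mean reached the median of all chicken probe sets, a signal of 118. The background level was 63.6 for control cells and 65.8 for knockdown cells. Of the 68 genes, 62 were measured (49 general factors and 13 tissue regulators). The 6 others were PRPF4, PTBP3, RBFOX1, CELF3, CELF5 and CELF6.

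The targets had lower signals on the knockdown array, with SOX4 at 6604 and 3157 and SOX11 at 4552 and 2790. The sorted cells carried neural tube markers on both arrays, among them the progenitor factor SOX2 (1581 in control cells and 2675 in knockdown cells) and the neuronal tubulin TUBB3 (1240 and 634). Of 13 measured neuronal markers 12 were below 0 on the log2 scale, where 47.9% of all measured genes were. Summed over the 14 matched ones, the signal was 165147 in control cells and 108358 in knockdown cells. Of 7 measured red blood cell markers 6 were at least 1.5-fold higher, where 11.4% of all measured genes were. The summed signal of the 8 matched ones was 36242 and 75856. SLC4A1, 1 of the 6, had a control signal of 108.2, below the signal threshold for measured genes. Of 13 measured muscle and heart markers 10 were at least 1.5-fold higher and 1 was that much lower. The lower one was MEF2C (165.9 and 95.6), and MYOD1 was lower by less (269.8 and 209.9). The summed signal of the 15 matched ones was 18250 and 36049, of which TPM1 alone had 14814 and 19185 (log2 ratio 0.37). Among the 10, MYL3 (88.6) and MYF5 (107.9) had control signals below the signal threshold, and MYL2 (42.8) had one below background. For the actin control transcript the 3' probe sets exceeded the 5' ones by a ratio of 5.45 in control cells and 1.85 in knockdown cells. Of 13 measured progenitor markers 10 were below 0 (median log2 ratio -0.13). These markers were bright, with a median control signal of 15449, and 61.9% of the brightest 10% of all genes were below 0 (median -0.061). SOX1 was lower (2475 and 1456) and SOX2 higher by at least 1.5-fold. Of 12 endothelial markers 1 was lower and 7 were higher by that much, and of 10 neural crest markers 1 was lower and 2 were higher. The lower gene was ETS1 (2201 and 1350) in both lists, and 5.71% of all measured genes were that much lower. Among the 7 higher endothelial ones, KDR (104.1), TEK (109.9) and TIE1 (97.2) had control signals below the signal threshold. The reference gene GAPDH had 55947 and 49481 (log2 ratio -0.18). The part of these differences in the results below was not tested.

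Most splicing genes differed by less than 1.5-fold between the arrays in their brightest probe sets. Of the 62 measured genes, 3 were lower by at least 1.5-fold and 3 were higher by that much in the knockdown, where 5.71% of all 9303 measured genes were that much lower and 11.4% that much higher. The 3 lower ones were the tissue regulators CELF2 and CELF4 and the SR protein gene SRSF5. The 3 higher ones were the general factors HNRNPKL, HNRNPDL and SNRPD2. At 2-fold, 0 were lower and 1 was higher, against 1.06% and 3.64% of all measured genes. The 1 was HNRNPKL, which fell just short of 2-fold with centring on the median of measured chicken probe sets (log2 ratio 0.98). Over all 141 measured probe sets of these genes, 7 were lower and 17 higher by at least 1.5-fold. The shares over all measured probe sets with 1 symbol were 5.45% and 16.9%.

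General factors were centred on no difference, and tissue regulators lay slightly lower. The median log2 ratio was 0.010 over the 49 measured general factors, with 23 below 0 and 26 above. It was -0.14 over the 13 measured tissue regulators, with 9 below 0 and 4 above. Over all measured genes the median was 0.020 and 47.9% lay below 0. The general median exceeded the tissue median by 0.15. Many of these genes give bright probe sets, for which the spread of log2 ratios is narrower: in the brightest 10% of all genes 2.77% were lower and 1.15% higher by at least 1.5-fold, and the median was -0.061. Of the general factors 38 fell in that range, with 1 lower, 1 higher and a median of -0.0094. Only 2 tissue regulators did, with a median of -0.00070. The 2 classes thus differ in brightness, with a median control signal of 14553 for general factors and 5340 for tissue regulators.

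**Figure D1:**
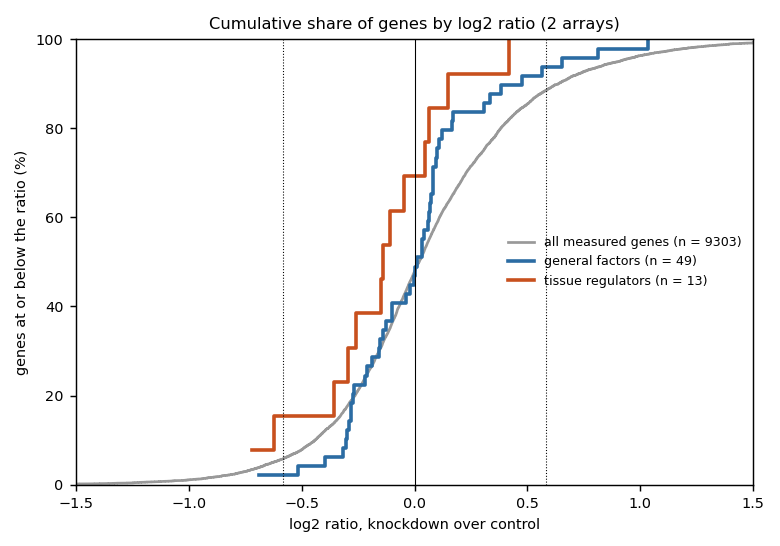
Cumulative percentage of genes (y axis) at or below each log2 ratio of knockdown over control (x axis) for all 9303 measured genes, 49 general factors and 13 tissue regulators; dotted lines mark 1.5-fold. The general factors cross 0 near the middle of their distribution (median 0.010), and the tissue regulators lie to the left (median -0.14).

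CELF2 and CELF4 had the lowest ratios of the 13 measured tissue regulators. They belong to the CELF family of RNA-binding proteins, which act on both splicing and mRNA stability. CELF1 was the only other measured member and did not reach 1.5-fold, while CELF3, CELF5 and CELF6 were not measured. CELF2 had 5615 in control cells and 3403 in knockdown cells, a log2 ratio of -0.72 or 1.65-fold lower. Its other measured probe set showed no such difference, with 478 and 484. CELF4, a family member enriched in neurons, had 782 in control cells and 507 in knockdown cells, a log2 ratio of -0.62 or 1.54-fold lower. Of its other measured probe sets 1 was lower (154 and 106) and 1 was level (331 and 345). CELF1, the broadly expressed member, had 1679 and 1558, a log2 ratio of -0.11. The CELF2 and CELF4 differences thus stood on some of the probe sets of each gene, and with the mean over measured probe sets neither reached 1.5-fold (log2 ratios of -0.35 and -0.37). CELF3 and CELF5 lay at or below background on at least 1 array, with CELF3 at 6.0 and 5.5 and CELF5 at 51.7 and 65.9. CELF6 had 52.1 in the control, below background, and 102.8 in the knockdown, which is at least 1.62-fold higher from a dim signal.

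The brightest probe sets of CELF2 and CELF4 were lower on the same array as the neuronal markers, whose median log2 ratio was -0.78. The third probe set of CELF4 was lower too (-0.54), while the second ones of CELF2 and CELF4 were level (0.02 and 0.06). CELF1 lay slightly below 0 in both measured probe sets (-0.11 and -0.25), and CELF6 was higher from a dim signal. In a bulk sample, fewer cells of a type and less RNA per cell cannot be told apart.

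RBFOX2, NOVA1, KHDRBS2 and KHDRBS3 were lower by less than 1.5-fold in their brightest probe sets, and KHDRBS1 was level in its brightest. RBFOX2, a Fox family regulator expressed in many tissues as well as in neurons, had 5340 in control cells and 4174 in knockdown cells (log2 ratio -0.36). NOVA1, a neuron-restricted KH-domain protein, had 8524 and 6944 (log2 ratio -0.30). KHDRBS3, which controls neurexin exons in mouse, had 5473 and 4571 (log2 ratio -0.26), and its other measured probe set gave nearly the same ratio of -0.24. KHDRBS2, its neuronal relative, had 1014 and 914 (log2 ratio -0.15) with -0.56 from the other measured probe set, and the broadly expressed KHDRBS1 had 10130 and 9805 (log2 ratio -0.05) with -0.46 from the other. All 6 measured KHDRBS probe sets were therefore below 0, with log2 ratios from -0.56 to -0.05. Among all measured probe sets with 1 symbol 42.6% were below 0. Under quantile normalization the log2 ratio of KHDRBS1 was 0.0094, and with loess centring 0.0058. With the mean over all probe sets, dim ones included, RBFOX2 turned to 0.41, NOVA1 to 0.23 and KHDRBS2 to 0.10. RBFOX1 was dim, with 100.2 in control cells and 82.8 in knockdown cells.

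PTBP1 was level, and PTBP2 was level in its brightest probe set. PTBP1 had 15580 in control cells and 16081 in knockdown cells, a log2 ratio of 0.05, and its other probe set gave 0.04. PTBP2 had 1056 and 1103, a log2 ratio of 0.06. The second measured probe set of PTBP2 was dimmer and higher in the knockdown, with 170 and 334 (log2 ratio 0.98), and its 3 others lay below background on both arrays. The brightest probe sets of the pair thus showed similar ratios, while the neuronal markers were lower. With the mean over measured probe sets the log2 ratio of PTBP2 was 0.52. PTBP3 had 109 in control cells and 36.8 in knockdown cells, below background there, which is at least 1.66-fold lower.

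MBNL genes, which encode muscleblind proteins that favour splicing patterns of differentiated tissue and counter CELF proteins in heart and muscle, were not lower as a group. MBNL1 had 5450 in control cells and 7285 in knockdown cells (log2 ratio 0.42), and its other measured probe set had 5382 and 6700 (log2 ratio 0.32). Both measured probe sets of MBNL1 were higher by a similar amount, short of 1.5-fold. MBNL2 had 1387 and 1539 (log2 ratio 0.15), with its 5 measured probe sets between -0.22 and 0.90. MBNL3 had 993 and 900 (log2 ratio -0.14), with its 3 measured probe sets between -0.22 and 0.20. The muscle markers had a median log2 ratio of 1.96 on the same arrays and the red cell markers 1.20. Whether these have a part in the MBNL1 values was not tested.

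**Figure D2:**
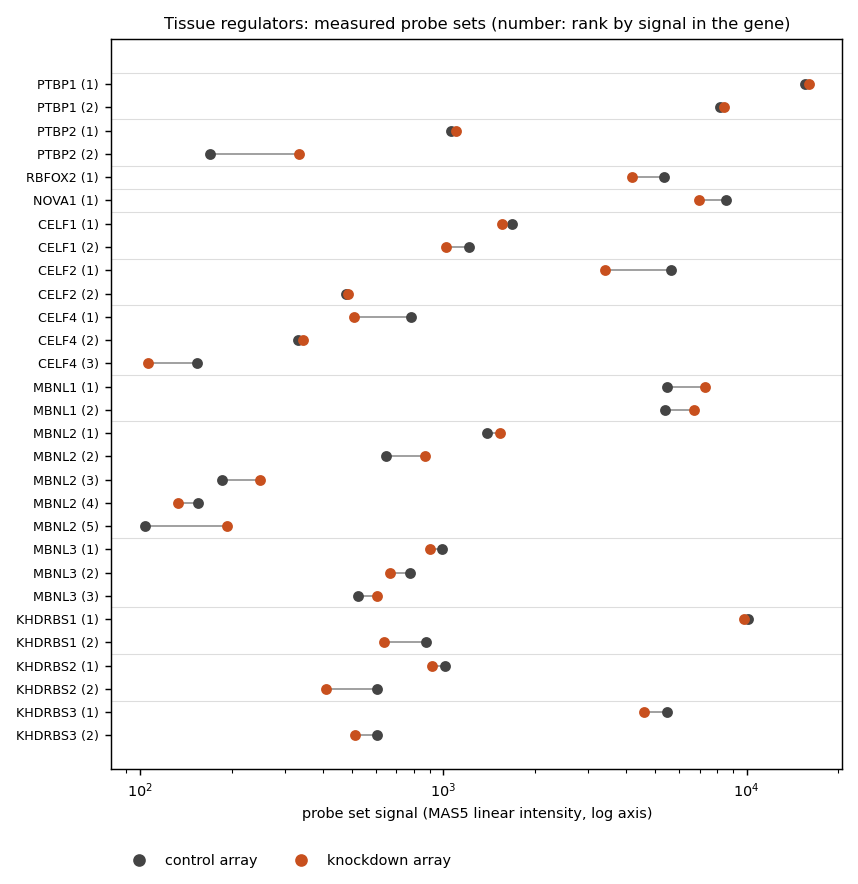
Signal of each measured probe set of the 13 measured tissue regulators in control cells (grey) and knockdown cells (orange), on a logarithmic x axis of MAS5 linear intensity; the number after a gene name ranks its probe sets by signal. The brightest probe sets of CELF2 and CELF4 are displaced to lower knockdown signal, those of PTBP1 and PTBP2 coincide, and both probe sets of MBNL1 are displaced to higher knockdown signal.

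Over single probe sets the tissue regulators lay on both sides of 0, with a lower median than all measured probe sets. The general factors had 112 measured probe sets, with 53 below 0 and a median log2 ratio of 0.031. Of 29 measured probe sets of tissue regulators 16 were below 0 and 13 above, with a median log2 ratio of -0.11. Among all 14899 measured probe sets with 1 symbol, 42.6% were below 0 and the median was 0.073. Of the 29, 2 were lower and 2 higher by at least 1.5-fold, against 5.45% and 16.9% of all measured probe sets. Among the 11 tissue regulators with several measured probe sets, all probe sets of 7 lay on 1 side of 0, and CELF2, CELF4, MBNL2 and MBNL3 were the 4 that did not.

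The SR proteins, activators that bind exonic enhancers, were divided between lower and level genes. Of 11 measured members 7 were below 0, and the family median was -0.12 on the log2 scale. This is close to the 61.9% below 0 in the brightest 10% of all genes. SRSF5 had 14820 in control cells and 9199 in knockdown cells, a log2 ratio of -0.69 or 1.61-fold lower. The other measured probe set of SRSF5 was lower by less, with 8906 and 7520 (log2 ratio -0.24), and with the mean of both the gene did not reach 1.5-fold.

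SRSF1, the first SR protein described as a splicing factor, had 44380 in control cells and 36697 in knockdown cells (log2 ratio -0.27). SRSF2 had 37759 and 31384 (log2 ratio -0.27), SRSF6 had 38762 and 31850 (log2 ratio -0.28), and SRSF11 had 13714 and 11003 (log2 ratio -0.32). SRSF10, which acts as a repressor when dephosphorylated, had 19251 and 17656 (log2 ratio -0.12), and its 4 probe sets lay between -0.44 and -0.12. These 5 genes were all below 0 in every measured probe set, by less than 1.5-fold in each brightest one. The third probe set of SRSF11 had the widest difference of them, with 756 and 461 (log2 ratio -0.71).

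The remaining SR genes were level or higher. SRSF3 had 31204 in control cells and 33444 in knockdown cells (log2 ratio 0.10), SRSF7 had 14553 and 15396 (0.08), and SRSF7L had 28190 and 28193 (0.00013). SRSF5A, a separate gene in the annotation from SRSF5, had 17700 and 17253 (log2 ratio -0.04). SRSF4 was dim and had 308 and 401 (log2 ratio 0.38). Within SRSF3 and SRSF5A the probe sets went far apart: another probe set of SRSF3 had 5384 and 11571 (log2 ratio 1.10) and its dimmest 237 and 160 (-0.57), while the second of SRSF5A had 884 and 2513 (1.51). SRSF3 therefore gave a level, a lower or a higher value and SRSF5A a level or a higher one, depending on the probe set.

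The hnRNP proteins, abundant nuclear RNA-binding proteins, were level apart from 2 genes. Of 13 measured members 7 were below 0 and 6 above, with a median log2 ratio of -0.00071. HNRNPA1, a common silencer of exons, had 45561 in control cells and 42553 in knockdown cells (log2 ratio -0.10), HNRNPH1 had 39127 and 38639 (-0.02), HNRNPA2B1 had 35132 and 31485 (-0.16), and HNRNPR had 34054 and 29456 (-0.21). HNRNPU, a scaffold protein of the nucleus, had 24307 and 25708 (log2 ratio 0.08). HNRNPAB, HNRNPD, HNRNPH3, HNRNPLL and HNRNPM had log2 ratios between -0.16 and 0.17. None of these 10 genes reached 1.5-fold in its brightest probe set, while single dimmer probe sets did in HNRNPA1 (0.94), HNRNPLL (1.11), HNRNPM (0.99) and HNRNPD (-0.65).

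HNRNPDL, a relative of HNRNPD, had 2 probe sets that went in opposite directions. The brighter had 13102 in control cells and 20631 in knockdown cells, a log2 ratio of 0.66 or 1.57-fold higher. The other had 4735 and 2436, a log2 ratio of -0.96. The range of 1.61 between them was among the widest of the 43 splicing genes with several measured probe sets, next to SRSF3 (1.67) and SRSF5A (1.54), and the gene's mean was -0.15. HNRNPDL is therefore higher or lower according to the probe set.

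HNRNPKL had the highest log2 ratio of the 62 measured genes of these families, and all of its probe sets were higher. It is a near copy of HNRNPK, a KH-domain protein that binds C-rich RNA, and the RefSeq gene table of the assembly GRCg7b places HNRNPKL on the W chromosome and HNRNPK on the Z chromosome. In birds W is carried by females only, so that females are ZW and males ZZ. The brightest probe set of HNRNPKL had 3948 in control cells and 8080 in knockdown cells (log2 ratio 1.03, 2.05-fold higher). The others had 3184 and 6864 (log2 ratio 1.11), 1179 and 2819 (1.26), and 356 and 639 (0.84). HNRNPK went the other way, with 27715 and 23825 (log2 ratio -0.22) from its only measured probe set, and the mean with its 2 probe sets below background was 0.68. Where 2 genes are this alike, probes of one can also bind RNA of the other, so the split between them is uncertain.

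Other W-linked genes were higher with HNRNPKL. Of 12 measured genes that RefSeq places on W, HNRNPKL included, 10 were above 0 and 6 at least 1.5-fold higher, against 11.4% of all measured genes, with a median log2 ratio of 0.73. SPIN1L, a W-linked spindlin gene, had 637 in control cells and 1320 in knockdown cells (log2 ratio 1.05), and UBAP2L2 had 122 and 361 (1.56). The brightest of them, HINTW, had 39999 and 45934 (log2 ratio 0.20), and UBE2R2L had 844 and 796 (-0.09). Over 428 measured Z-linked genes the median log2 ratio was -0.10 with 265 below 0, and over 8779 autosomal genes it was 0.026. CELF4 and PTBP3 are also placed on Z. Sex of the embryos is not given in the labels, and its part in the values of HNRNPKL, HNRNPK, CELF4 and PTBP3 was not tested.

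**Figure D3:**
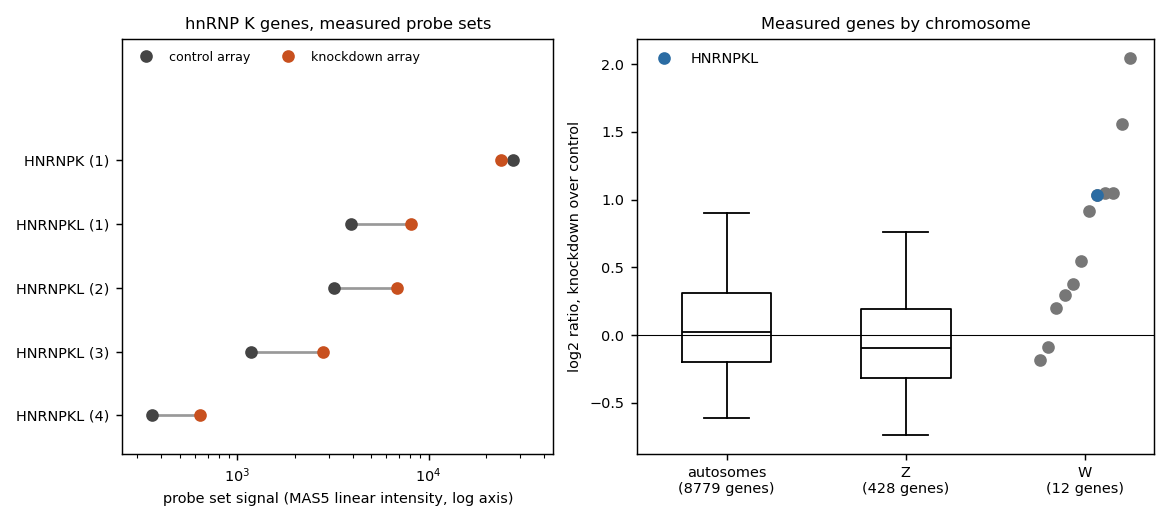
Left, signals of the measured HNRNPK and HNRNPKL probe sets on the control (grey) and knockdown (orange) arrays on a logarithmic axis of MAS5 linear intensity; right, log2 ratios of measured autosomal and Z-linked genes (box from the 25th to the 75th percentile, line at the median, whiskers from the 5th to the 95th percentile) and of each of 12 W-linked genes (points in order of their ratio). All 4 HNRNPKL probe sets are higher in the knockdown, and 10 of the 12 W-linked genes are above 0.

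The snRNP proteins were level to slightly higher. Of 10 measured members 3 were below 0 and 7 above, with a median log2 ratio of 0.077. Among all measured genes 47.9% were below 0, with a median of 0.020. The Sm ring proteins SNRPD1 and SNRPD3 had 9708 and 10572 (log2 ratio 0.12) and 19520 and 20845 (0.09), SNRPE had 25999 and 23629 (-0.14), SNRPF had 355 and 331 (-0.10) and SNRPGP15, for which RefSeq lists SNRPG as a synonym, had 20034 and 20877 (0.06). SNRPN, for which RefSeq lists SNRPB as a synonym, had 14357 in control cells and 18110 in knockdown cells (log2 ratio 0.34). SNRPD2 was the only one of the 10 past 1.5-fold in its brightest probe set, with a dim signal of 278 and 490 (log2 ratio 0.81, 1.76-fold higher) from its only probe set. Second probe sets were also past 1.5-fold in SNRPD3 (9253 and 15599, log2 ratio 0.75), SNRPC (4703 and 7273, 0.63) and SNRPE (300 and 468, 0.64), the last against its brightest. Among all measured probe sets with 1 symbol, 16.9% were that much higher. With the mean over measured probe sets the family median was 0.27, and the median over all measured genes was 0.099.

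The snRNP-specific proteins went in both directions. SNRPC, a protein of the U1 particle that recognises the 5' splice site, had 32765 in control cells and 33727 in knockdown cells (log2 ratio 0.04). SNRPA1, of the U2 particle, had 10677 and 15804 (log2 ratio 0.57), short of 1.5-fold, while its other measured probe sets gave 0.14 and -0.38. SNRPB2, its partner in U2, was dim, with 270 and 189 (log2 ratio -0.52).

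The SF3A and SF3B proteins, which hold the U2 particle at the branch point, all lay within 1.5-fold in their brightest probe sets. Over 7 measured members the median log2 ratio was 0.031. SF3B1, the branch point subunit, had 23087 in control cells and 18773 in knockdown cells (log2 ratio -0.30), SF3A1 had 11244 and 9121 (-0.30) and SF3B4 had 2028 and 1539 (-0.40). SF3B3, SF3A3, SF3B5 and SF3B6 had log2 ratios between 0.03 and 0.17. The 5 probe sets of SF3A3 ran from -0.47 to 0.76 (2853 and 4821 for the highest), and the 3 measured ones of SF3B3 from -0.16 to 0.55. The second probe set of SF3A1 was also lower (-0.36), while that of SF3B4 was higher (0.29).

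The PRPF proteins, which build and remodel the catalytic particle, were within 1.5-fold in the brightest probe set of all 8 measured members, with a median of 0.037. PRPF8, the scaffold of the catalytic core, had 18716 in control cells and 15311 in knockdown cells (log2 ratio -0.29), PRPF19, the ubiquitin ligase of the spliceosome, had 9092 and 7482 (-0.28) and PRPF6 had 9503 and 8337 (-0.19). PRPF38A had 2221 and 3094 (log2 ratio 0.48) and PRPF38B 1362 and 1686 (0.31). PRPF3, PRPF18 and PRPF4B, a kinase, lay between 0.01 and 0.08. Other measured probe sets disagreed: those of PRPF8 (0.17), PRPF19 (0.31) and PRPF6 (0.39) were above 0, that of PRPF38B (-0.21) was below, and 1 of PRPF4B had 758 and 399 (log2 ratio -0.92). PRPF4 was not measured by the signal threshold: its brighter probe set had 147 in control cells and 42.1 in knockdown cells, below background there, which is at least 2.24-fold lower.

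**Figure D4:**
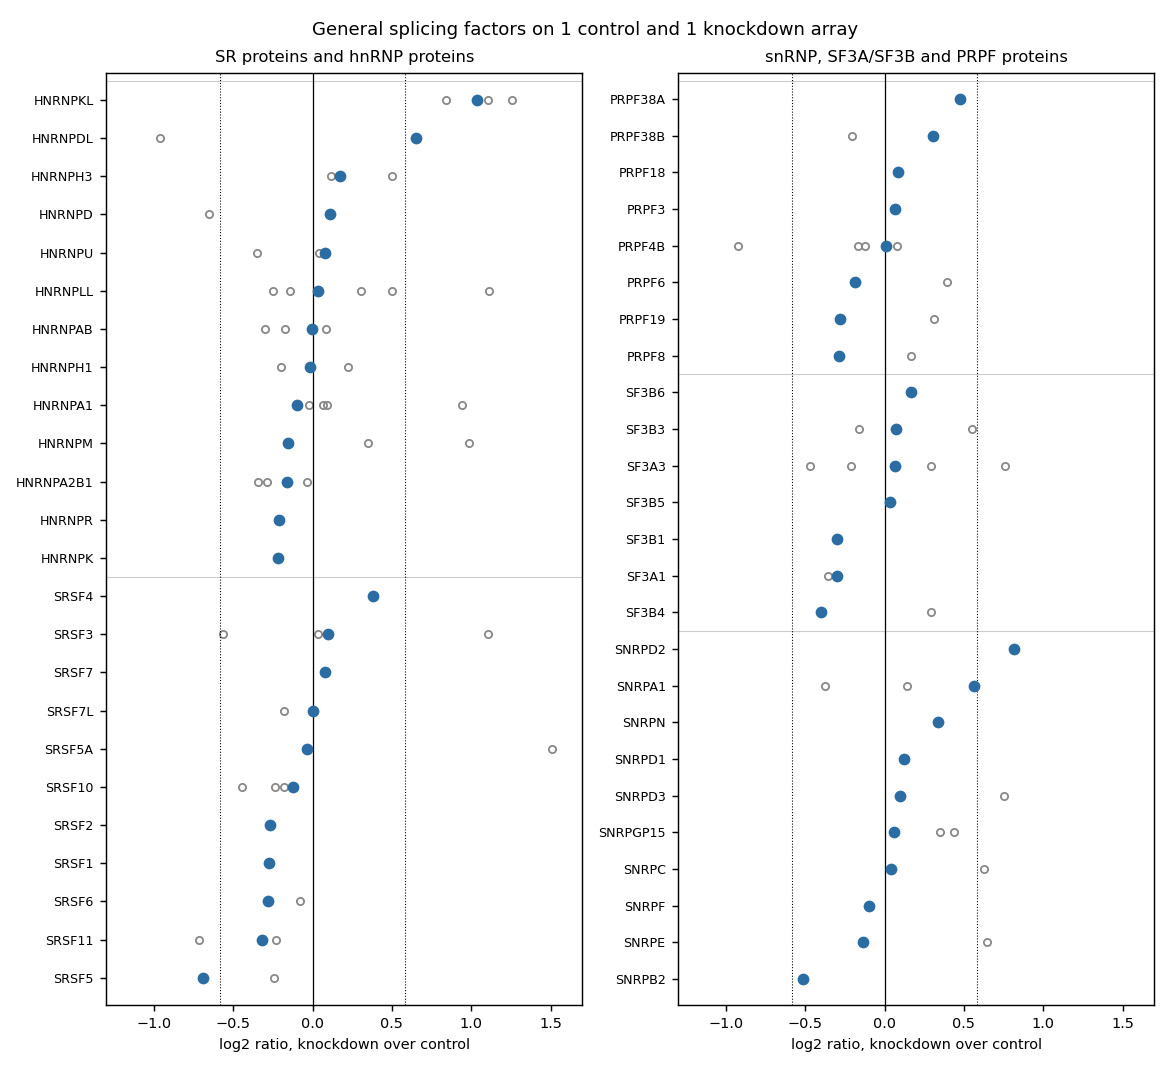
Log2 ratio of knockdown over control (x axis) for each of the 49 measured general factors, by family; filled points are the brightest probe set of a gene, open points its other measured probe sets, and dotted lines mark 1.5-fold. Only SRSF5 among the filled points lies left of the lower line and only HNRNPKL, HNRNPDL and SNRPD2 lie right of the upper line, while open points of several genes lie far from their filled point.

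Probe sets of the same gene often disagreed. Of the 43 splicing genes with several measured probe sets, 18 had all of them on 1 side of 0 (11 of 32 general factors and 7 of 11 tissue regulators). Over all 3853 such genes on the array the share was 46.9%. The SD between probe sets of a gene was 0.41 on the log2 scale over the splicing genes and 0.48 over all genes. A difference of 1.5-fold, 0.58 on this scale, is thus not far above the spread between probe sets of a gene. The dimmer probe sets of the splicing genes exceeded the brightest by a median of 0.075 (42 of 79), and over all genes by 0.25 (3887 of 5596).

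Other genes of the splicing pathway were taken in lists by symbol. Of 128 measured ones 3 were at least 1.5-fold lower and 7 higher, where 5.71% and 11.4% of all measured genes were. At 2-fold 1 was lower and 4 were higher, against 1.06% and 3.64% of all measured genes. Of 56 measured genes listed as core spliceosome proteins outside these families, 0 were at least 1.5-fold lower and 3 higher, with a median log2 ratio of 0.064. The 3 were RNPC3, a protein of the minor spliceosome (339 and 768, log2 ratio 1.18), LUC7L (779 and 1407, 0.85) and SUGP1 (204 and 318, 0.64). The U5 helicase SNRNP200 had 5056 and 3417 (log2 ratio -0.57) and CHERP 0.50. Of 20 SR-related proteins and SR protein kinases 1 was higher and 0 lower, with a median of -0.13, or 0.13 when measured probe sets were averaged. That 1 was RNPS1, a protein of spliced mRNA (804 and 1786, log2 ratio 1.15). The SR protein kinase gene CLK2 had 4020 and 2705 (log2 ratio -0.57), SRPK2 0.39, SCAF8 0.38 and SCAF11 -0.35.

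The exon junction and SMN complexes mark spliced mRNA and assemble snRNPs. The list taken for them also held genes outside the 2 complexes, such as UPF1, PRMT5 and COIL. Its 17 measured genes had a median log2 ratio of 0.052. Of these, 1 was higher and 0 lower by 1.5-fold, where 11.4% and 5.71% of all measured genes were. The 1 was GEMIN8 (401 and 885, log2 ratio 1.14), while WDR77, which takes part in the methylation of Sm proteins, had 16493 and 11902 (-0.47). RBM8A had a log2 ratio of 0.44, UPF3B 0.32 and PRMT5 -0.29. Of 24 RNA-binding proteins related to hnRNPs, 18 were below 0, with a median of -0.12. Over all measured genes 47.9% were below 0, and in the brightest 10% of all genes 61.9%. Of the 24, 1 was at least 1.5-fold higher and 0 lower, where 11.4% and 5.71% of all measured genes were. The 1 was ELAVL1, the broadly expressed Hu protein (3864 and 7385, log2 ratio 0.93), and STRBP (-0.41), TIA1 (-0.38), FUBP1 (-0.33) and YBX3 (0.33) came next in size.

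A further list held tissue-restricted regulators. Of its 12 measured genes, 3 were at least 1.5-fold lower and 1 higher, where 5.71% and 11.4% of all measured genes were. Their median log2 ratio was -0.26, which turned to 0.12 with the mean over all probe sets. The 3 were the neuronal Hu protein genes ELAVL2 (2632 and 1108, log2 ratio -1.25) and ELAVL4 (20538 and 10781, -0.93), and RBM38 (15362 and 9523, -0.69). ELAVL4 is also among the neuronal markers given above. The 1 was ESRP2, an epithelial splicing regulator (177 and 674, log2 ratio 1.93), and RBM24, a regulator of muscle splicing, had 3221 and 4615 (0.52). Of 9 measured surface ectoderm markers 4 were at least 1.5-fold higher and 0 lower, with 2 below 0 and a median log2 ratio of 0.17. KRT7 had 543 and 2239 and CDH1 330 and 553, while EPCAM was level (3291 and 3312). CLDN4 (311 and 225) and TFAP2A (531 and 399) were lower by less than 1.5-fold. DSP, 1 of the 4, had a control signal of 102.2, below the signal threshold. The summed signal of the 11 matched markers was 8586 and 10982.

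The tissue median was below the general median in all processing settings, by an amount that varied. Centring on the median of measured chicken probe sets and the symbol update, which changed 0 symbols, could not alter this distance. Raising signals to background left it at 0.15. The general median minus the tissue median was between 0.018 and 0.30 on the log2 scale over 12 alternatives. With the mean over all probe sets, of which 29 of the 58 tissue probe sets were below the signal threshold, the tissue median was 0.042 and the general median 0.060.

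**Figure D5:**
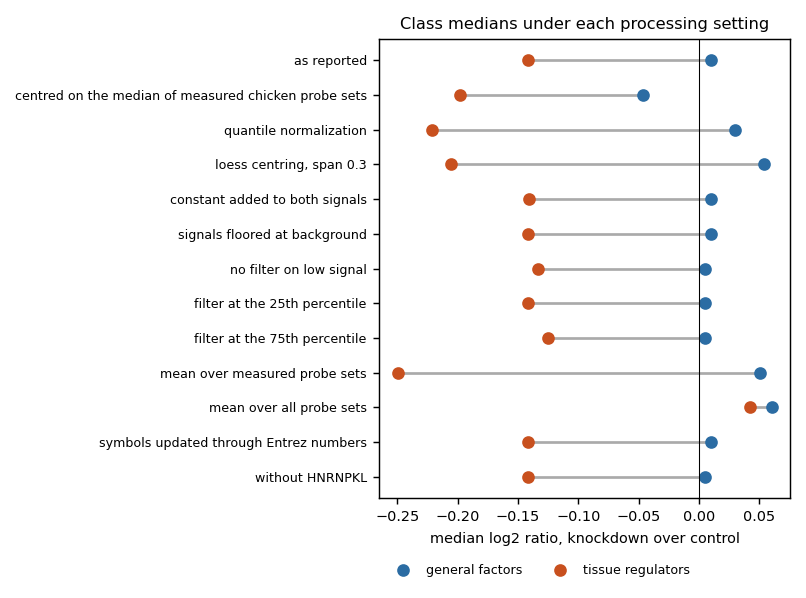
Median log2 ratio of knockdown over control (x axis) of the measured general factors (blue) and tissue regulators (orange) as reported and under each of 12 alternative settings (y axis). The tissue median lies to the left in each, between -0.25 and 0.042, and nearly meets the general median with the mean over all probe sets.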

How the data were processed

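Per the labels' protocols, 100 ng of total RNA of the sorted cells was amplified and biotinylated with a 3' IVT kit. The deposited table holds 1 linear signal intensity per probe set and array, made by the authors with MAS5 5.0 per the submitters' processing notes. Their mean without the highest and lowest 2% was 1000 on both arrays, so the deposited intensities had been scaled. No detection calls were used, and log2 was taken once.

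Of 37693 chicken probe sets, 27166 had 1 symbol in the platform annotation, 177 several and 10350 none. Updating symbols through Entrez numbers changed 0. Background on each array was the 95th percentile over 687 viral probe sets. A gene at or below it on 1 array has a bound, and on both no fold. Gene counts used signals raised to background, medians the signals as deposited.

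The members and lists were chosen with earlier results of these data known. The named genes were all tissue regulators, general factors past 1.5-fold, the extreme and brightest genes of each family, up to 5 genes per other list, the targets, TUBB3, SOX2 and GAPDH; further members are given for completeness, and W-linked genes were chosen after their values were seen. List genes were matched by symbol (141 of 176 splicing genes). With 1 array per group no test was made and precision is limited by the number of arrays. Alternatives covered scaling, low signals, the filter, the probe set rule and the symbol source. The counting was tested on simulated data. Planned sequence comparisons of members were not made here. Python 3.11.15, pandas 2.3.3, scipy 1.17.1 and statsmodels 0.14.6 were used.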

Additional observations from a re-analysis of the deposited data

How the results depend on the processing

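Of 657 values recomputed under 12 alternatives, 600 stayed within 0.1 (medians), 0.41 (single genes, the SD between probe sets) or 1.5 times (counts). The 600 include values that a setting could not move, so they do not measure stability. The symbol update changed 0 symbols, and neither the signal filters nor leaving out HNRNPKL can alter the ratio of another single gene. The probe set rule moved most. With the mean over measured probe sets the tissue median was -0.25, the class difference 0.30 and the count of genes at least 1.5-fold lower 0; HNRNPDL turned to -0.15 and the SR-related list to 0.13. With the mean over all probe sets the tissue median turned to 0.042, the class difference was 0.018, the lower count 0, HNRNPDL -0.15, PRPF4 0.70, the SR-related list 0.13 and the other tissue-restricted list 0.12. Loess centring gave a class difference of 0.26. Without a filter, and with one at the 25th percentile, 5 genes were lower, since PRPF4 and PTBP3 then counted. The general median took either sign, from -0.046 to 0.060. The cause of the other shifts was not tested. Leaving out HNRNPKL was chosen after seeing the data and left 2 higher genes. No paired analysis was possible because each group has 1 array.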
